A study of Mus musculus with 2 samples.

Results

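The UDP-glucuronosyltransferases (Ugt), cytosolic sulfotransferases (Sult) and glutathione transferases (Gst) were examined on 2 Affymetrix arrays of mouse liver RNA. A gene was a member when it had a probe set with 1 gene symbol in the platform annotation and that symbol began with Ugt1a to Ugt3b, with Sult and a digit, or with Gst, a class letter (a, m, k, o, p, t or z) and a digit. This gave 43 of 18193 genes, namely 10 Ugt, 13 Sult and 20 Gst genes, read by 54 probe sets. Membership followed from names alone and used no measured value, though the rule was chosen with earlier results of these data known.

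One array held liver RNA labelled as from Bglu3 congenic mice and the other RNA from C57BL/6 apoE-/- mice, the controls. A congenic strain carries a chromosome segment of a donor on the background of another strain, here C57BL/6 per the labels, and Bglu3 is known as a blood glucose locus of chromosome 1. All animals ate chow from 3 weeks of age and a Western diet for 12 weeks from 6 weeks of age, and both groups are labelled hyperglycemic. The donor strain, the extent of the segment, the apoE genotype of the congenic mice, the sex and the number of mice behind an array are not stated in the labels. With 1 array per group there was no spread between animals and no test, so each difference describes these 2 arrays.

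Conjugation attaches a polar group to drugs, steroids, bilirubin, bile acids or reactive products of oxidation, after which the product leaves the cell through export pumps. Ugt enzymes sit in the endoplasmic reticulum and use UDP-glucuronic acid, Sult enzymes use the sulfate donor PAPS in the cytosol, and Gst enzymes join glutathione to electrophiles. Liver hepatocytes are the main site of all 3 reactions. Their genes are known to respond to the receptors CAR, PXR and AhR, to the stress factor Nrf2 and, for several Sult genes, to the sex-specific growth hormone pattern.

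Each gene was represented by its brightest probe set and counted as expressed when that probe set reached the array's 50th percentile in 1 or both livers. Of the 43 members 37 were expressed, 36 of them on both arrays. A difference is log2(intensity + 5) of the congenic array minus that of the control array, so a negative value means a lower signal in the congenic liver. The median difference of the 37 expressed members was -0.17, against 0.04 for all 12613 expressed genes. By 1.5-fold or more, 6 members were lower and 0 higher, whereas 5.26% of all expressed genes were that much lower and 7.59% higher. At any size, 27 of the 37 were lower, beside 43.8% of all expressed genes. In bulk liver, fewer cells of a type and less RNA per cell cannot be told apart.

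The family medians differed. The Sult genes had a median difference of -0.35 over 9 expressed members, with 3 lower by 1.5-fold or more. The Ugt genes had a median of -0.17 over 9 and the Gst genes of -0.10 over 19, with 1 and 2 members that much lower. The Sult genes ranged from -1.35 to 0.41, the Ugt genes lay between -0.73 and 0.28, and the Gst genes between -1.55 and 0.46. These values describe a few genes each, and the difference between families was not tested. Their order depends on the filter: with all 43 members the medians were -0.126 for Ugt, -0.091 for Gst and -0.082 for Sult.

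**Figure D1:**
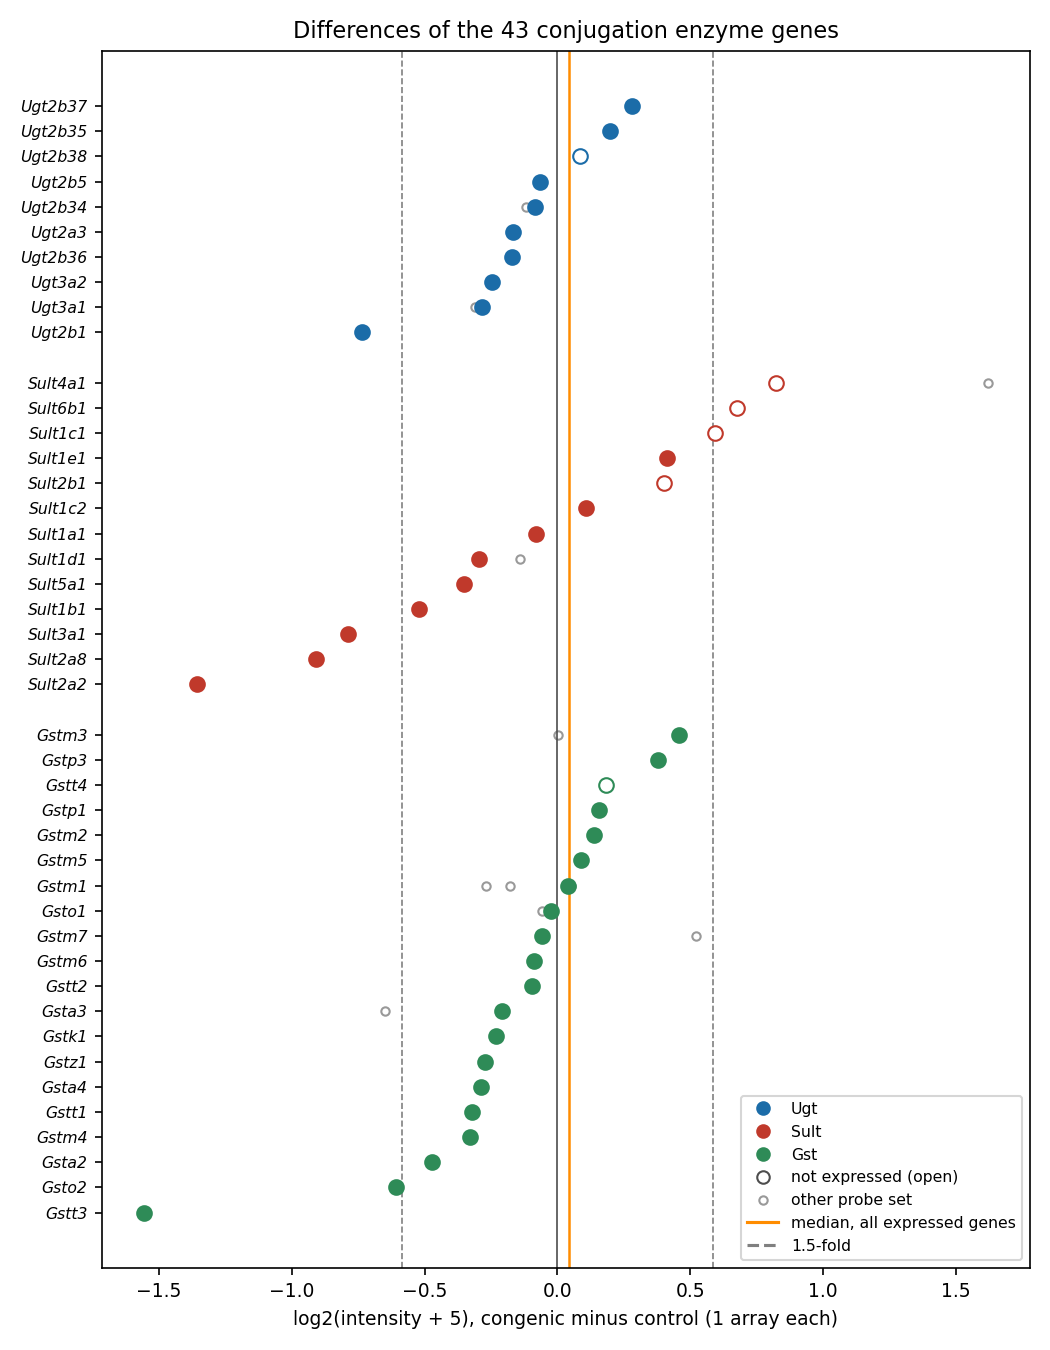
Log2 difference between the congenic and the control array for each of the 43 members, by family (1 array per group, so there is no error bar). Filled points are expressed members, open coloured points members that were not expressed, small open points other probe sets of the same gene, dashed lines 1.5-fold and the orange line the median of all expressed genes (0.04). The 6 expressed members beyond 1.5-fold all lie on the lower side.

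Brightness bears on these comparisons, because dim probe sets scatter more. The log2 differences of the several probe sets of a gene had a within-gene SD of 0.44 where the mean intensity was under 100, 0.32 from 100 to 1000 and 0.25 at 1000 or more (778 genes in this last class). Of the expressed members 19 had a mean intensity of 1000 or more. In this brightest class 16 of the 19 members were lower at any size, beside 48.5% of all 1389 genes of the class, and 3 were lower by 1.5-fold or more, beside 1.94%. The median of these 19 was -0.17 and that of the class 0.01.

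**Figure D2:**
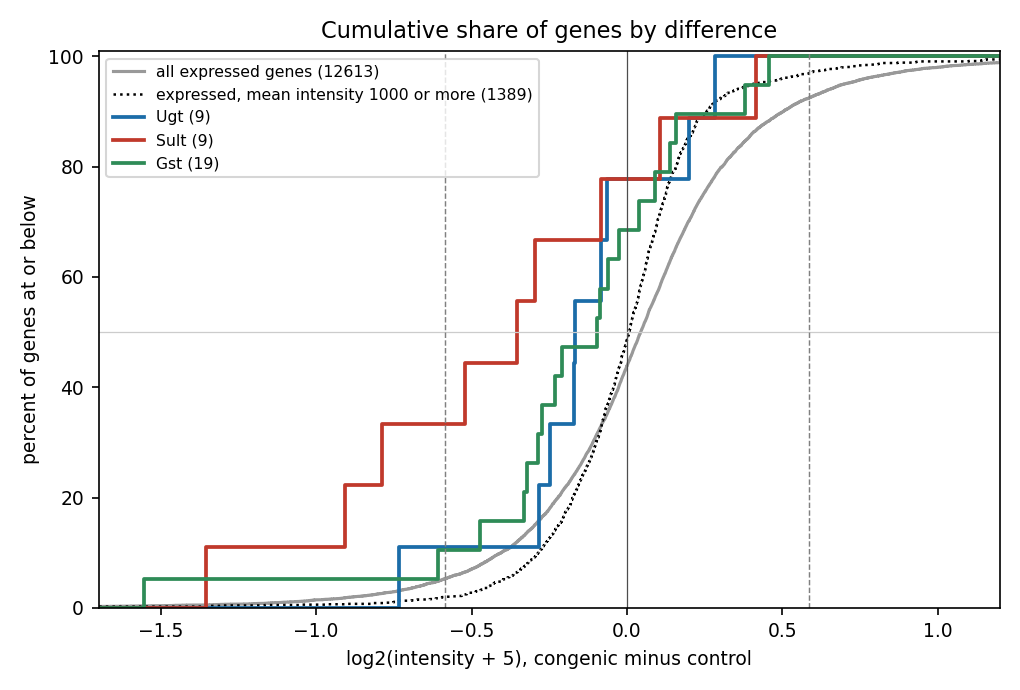
Cumulative percent of genes at or below a given log2 difference, for all expressed genes (grey), expressed genes of mean intensity 1000 or more (dotted) and the expressed Ugt, Sult and Gst genes (coloured steps). The Sult curve crosses the 50% line at -0.35 and the Ugt and Gst curves at -0.17 and -0.10; the curves cross one another toward both ends.

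Sult2a2, Sult2a8 and Sult3a1 held the lowest values of their family. Sult2a2, a hydroxysteroid sulfotransferase, had an intensity of 1973 in the congenic against 5054 in the control liver. Its log2 difference of -1.35 was rank 4 from the lowest among the 1389 brightest genes. Sult2a8, a liver sulfotransferase reported to act on bile acids, stood at 1800 against 3379 (log2 difference -0.91), rank 10 of the same class. Sult3a1, which sulfates amines, stood at 640.2 against 1108, a log2 difference of -0.79. Both Sult2a genes lie beside each other in RefSeq order on chromosome 7 among the genes expressed here, and Sult3a1 lies on chromosome 10. Further Sult2a genes of that cluster are close in sequence and were not analysed here, so a probe set named for one may also bind another.

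The expressed genes next to these members were lower as well, by differing amounts. Beside the Sult2a pair lay Pla2g4c with 11.4 against 21.3 (log2 difference -0.68) and Nlrp5-ps with 18.3 against 43.8 (-1.07). Both passed the filter on expression only through the control array, so a lower value was built into their selection. One gene further out, Lig1 differed by 0.68 and Obox5 by -0.11. Next to Sult3a1, Rnf217 differed by -0.30 and Rsph4a by -0.07, and one gene further out Tpd52l1 differed by -0.11 and Zup1 by 0.54.

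The promoter regions of Sult2a8 and Sult3a1, the bright lower members of this family for which RefSeq sequence was at hand, are shown from 250 bases before to 50 after the gene start (GRCm38.p6). They were searched on both strands for TGACNNNGC (antioxidant response element core), GCGTG (dioxin response element core), GTTAAT (HNF1), TTCNNNGAA (STAT), AGGTCA (nuclear receptor hexamer) and TATAAA, and capitals mark the matches.
Sult2a8, chr7:14446538-14446837, minus strand: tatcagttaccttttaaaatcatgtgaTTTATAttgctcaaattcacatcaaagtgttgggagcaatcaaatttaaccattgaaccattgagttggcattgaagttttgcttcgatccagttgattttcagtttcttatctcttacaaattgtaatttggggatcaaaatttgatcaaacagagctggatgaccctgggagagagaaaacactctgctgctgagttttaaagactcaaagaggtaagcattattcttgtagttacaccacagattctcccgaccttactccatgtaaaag
Sult3a1, chr10:33857472-33857771, plus strand: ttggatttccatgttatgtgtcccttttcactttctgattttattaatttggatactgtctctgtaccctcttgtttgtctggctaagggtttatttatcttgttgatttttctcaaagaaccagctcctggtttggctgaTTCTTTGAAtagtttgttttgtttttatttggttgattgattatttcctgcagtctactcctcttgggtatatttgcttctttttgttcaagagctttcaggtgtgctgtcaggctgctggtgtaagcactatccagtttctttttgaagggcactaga
The match in Sult2a8 is TATAAA on the opposite strand, which begins at position -223 from the start. The match in Sult3a1 is TTCNNNGAA, which begins at position -109. STAT factors carry the growth hormone signal to liver genes, and TTCNNNGAA was in 1 of 38 member promoters and in 8.42% of 27025 promoters of the table. A match is a description of the letters and not a binding site.

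The expressed Sult1 genes, which act on phenols, catecholamines and estrogens, stayed within 1.5-fold. Sult1b1, a phenol and thyroid hormone sulfotransferase, came closest with 173 against 251 (log2 difference -0.52). Sult1d1, which prefers catecholamines, stood at 2324 against 2855 (-0.30), and its other probe set at 1929 against 2125 (-0.14). The main liver phenol sulfotransferase Sult1a1 read 5627 against 5957, a log2 difference of -0.08. On the higher side were Sult1e1, the estrogen sulfotransferase, with 127 against 94.3 (0.41), and Sult1c2 with 96.7 against 89.5 (0.11). The neighbours Sult1b1, Sult1d1 and Sult1e1 on chromosome 5 thus differed in opposite directions. Sult5a1, a less studied member, was dim at 56.0 against 72.9 (-0.35).

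Of the Sult genes 4 were not expressed on either array. Sult1c1 stood at 7.94 against 3.58, Sult2b1, a cholesterol sulfotransferase of skin, at 3.87 against 1.72, and Sult6b1 at 13.0 against 6.26. Sult4a1, a brain member, read 10.8 against 3.91 in its brightest probe set and 13.4 against the repeated low value of 1 in the other. All 4 were below the array medians of 19.3 and 19.7, and all 4 were nominally higher on the congenic array, so their inclusion moved the Sult median to -0.082.

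Sex bears on this family, since Sult2a and Sult3a1 transcripts are known to be far more abundant in female than in male mouse livers. The labels give no sex. Xist, the RNA of the inactive X chromosome, had an intensity of 2132 in the congenic against 1711 in the control liver. The Y-linked genes Uty, Eif2s3y and Kdm5d read 19.1 against 34.8, 7.49 against 14.9 and 5.54 against 16.4. Uty was above the median of the control array and just below that of the congenic array, and the other 2 were below it on both. Outside the conjugation enzymes, 5 of 16 expressed genes of a list of sex-biased liver genes were lower by 1.5-fold or more and 1 was higher. Their median was -0.11, and of all expressed genes 5.26% were that much lower and 7.59% higher. Fmo2, also on this list, was within 1.5-fold by its brightest probe set, but others differed by -0.63 and 1.05. The female-biased Cyp3a16 (13.0 against 75.8) and the male-biased Cyp4a12a (7.49 against 28.3) were expressed only on the control array, so their lower values followed from the filter. The others were the male-biased Slco1a1 (29.3 against 92.7) and Elovl3 (84.9 against 186) and the female-biased Cyp3a44 (108 against 178) on the lower side and the complement gene C6 (659 against 272) on the higher. Cux2, a female-specific regulator, read 86.3 against 88.1. The part of sex in the Sult differences was not tested.

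Glucuronosyltransferases differed little, with the exception of Ugt2b1. Ugt2b1, which glucuronidates steroids and foreign phenols, had an intensity of 1755 in the congenic against 2924 in the control liver. Its log2 difference of -0.73 was rank 18 from the lowest among the 1389 brightest genes. Its neighbours on chromosome 5 differed less between the livers. Ugt2b34 read 4050.3 against 4294 (log2 difference -0.08), with its second probe set at -0.12, and Ugt2b35 read 2431 against 2118 (0.20). Ugt2b36 was at 5098 against 5734 (-0.17) and Ugt2b5, a major liver form, at 5196 against 5433 (-0.06). Ugt2b37 was dim at 80.8 against 65.6 (0.28), and Ugt2b38 was not expressed, with 2.64 against 2.21. Transcripts of this subfamily are close in sequence, so single values are uncertain.

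The start regions of these neighbours also differ. The 60 bases before and 40 after the start are shown for Ugt2b1 and for 3 genes that hold AGGTCA (capitals), the hexamer that nuclear receptors bind, in this window (GRCm38.p6, minus strand).
Ugt2b1, chr5:86926464-86926563: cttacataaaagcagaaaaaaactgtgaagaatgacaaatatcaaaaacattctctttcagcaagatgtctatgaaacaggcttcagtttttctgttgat
Ugt2b5, chr5:87140301-87140400: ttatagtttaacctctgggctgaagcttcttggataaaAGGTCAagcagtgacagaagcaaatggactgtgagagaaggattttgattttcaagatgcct
Ugt2b36, chr5:87092516-87092615: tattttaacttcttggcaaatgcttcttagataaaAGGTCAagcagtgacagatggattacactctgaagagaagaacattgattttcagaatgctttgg
Ugt2b37, chr5:87254749-87254848: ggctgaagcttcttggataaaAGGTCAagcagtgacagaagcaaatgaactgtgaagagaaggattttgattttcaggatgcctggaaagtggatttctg
The hexamer begins 22 bases before the start in Ugt2b5, 25 in Ugt2b36 and in Ugt2b38, and 39 in Ugt2b37, and the bases around it are nearly the same in all of them. In a pairwise alignment the Ugt2b5 window shared 94 of its 100 bases with Ugt2b38, 81 with Ugt2b37 and 77 with Ugt2b36. It shared 61 with Ugt2b35, 53 with Ugt2b1 and 50 with Ugt2b34. Neither Ugt2b1 nor Ugt2b34 has AGGTCA anywhere in the 300 bases searched, and in Ugt2b35 it begins 215 bases before the start. Over all members it was in 5 of 9 Ugt, 2 of 11 Sult and 1 of 18 Gst promoters, beside 16.0% of all promoters. The levels of Ugt2b1 and Ugt2b34, both without the hexamer, differed between the livers by -0.73 and -0.08.

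The other Ugt members were slightly lower. Ugt2a3, which acts on bile acids, read 1641 against 1845 (log2 difference -0.17). Ugt3a1, which uses N-acetylglucosamine in place of glucuronic acid, read 783 against 954 (-0.28), with a second probe set at -0.31, and Ugt3a2 read 2711 against 3220 (-0.25). Genes of the Ugt1a locus on chromosome 1, which conjugates bilirubin and phenols and splices many first exons to shared last exons, had no probe set with 1 symbol and are not members. The 3 probe sets that carry the symbols of 8 Ugt1a genes at once read 7491 against 8274 (log2 difference -0.14), 5693 against 6533 (-0.20) and 4325 against 5195 (-0.26). All of the 3 were a little lower on the congenic array and within 1.5-fold.

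**Figure D3:**
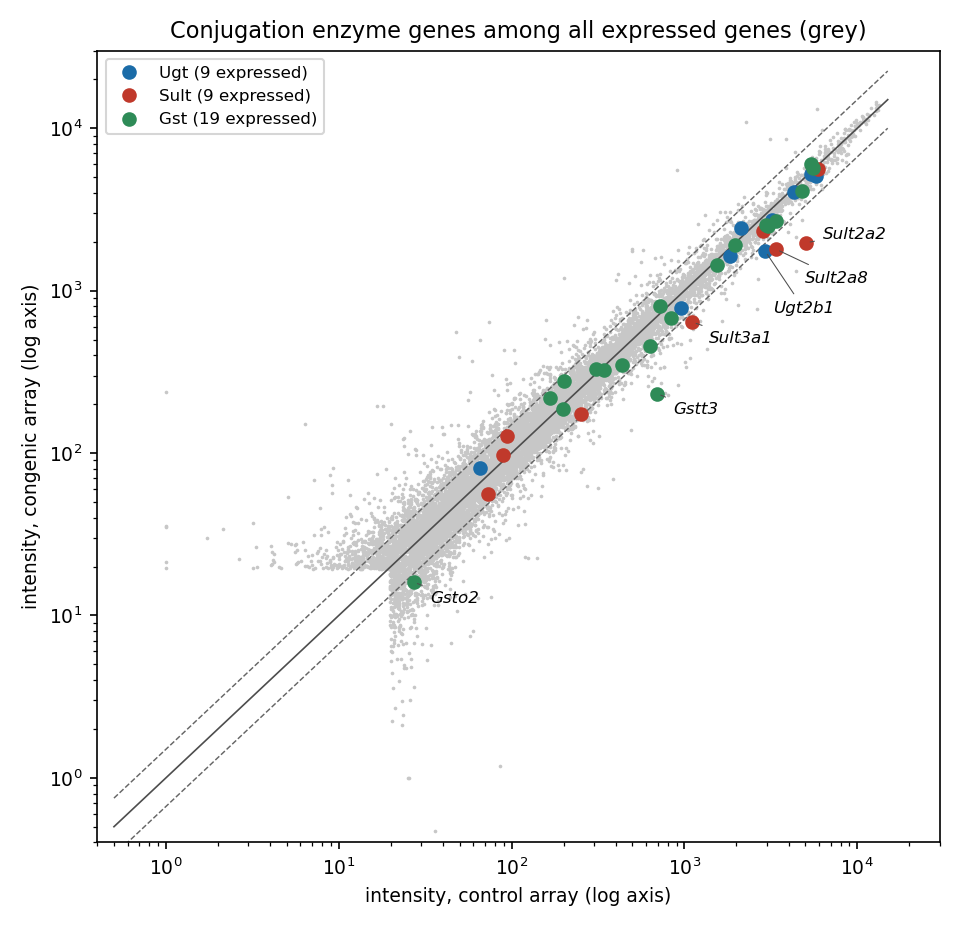
Intensity on the congenic against the control array (log axes) for all 12613 expressed genes (grey) and the expressed Ugt (9), Sult (9) and Gst (19) genes. The solid line marks equal intensity and dashed lines a ratio of 1.5 of the plain intensities; Gstt3, Sult2a2, Sult2a8, Sult3a1, Ugt2b1 and Gsto2 lie below the lower dashed line.

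Among glutathione transferases Gstt3 stood out. This theta class gene had an intensity of 233 in the congenic against 693 in the control liver, a log2 difference of -1.55. It was rank 12 from the lowest among 5862 genes with a mean intensity of 100 to 1000, and it had the lowest value of all members. By 2-fold or more, 2 members were lower, Gstt3 and Sult2a2, beside 1.45% of all expressed genes. The theta genes next to Gstt3 on chromosome 10, which act on small halogenated compounds and other electrophiles, read 2700.3 against 3374 for Gstt1 (log2 difference -0.32) and 1435 against 1533 for Gstt2 (-0.10). On the other side of it Ddt read 4959 against 5345 (-0.11) and Cabin1 36.7 against 54.1 (-0.50). Gstt4 was not expressed, at 1.81 against 1. All 4 of these neighbours were thus lower too, within 1.5-fold, and the value of Gstt3 rests on 1 probe set.

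The promoter region of Gstt3 holds none of the 6 motifs and is shown for that reason.
Gstt3, chr10:75781373-75781672, minus strand: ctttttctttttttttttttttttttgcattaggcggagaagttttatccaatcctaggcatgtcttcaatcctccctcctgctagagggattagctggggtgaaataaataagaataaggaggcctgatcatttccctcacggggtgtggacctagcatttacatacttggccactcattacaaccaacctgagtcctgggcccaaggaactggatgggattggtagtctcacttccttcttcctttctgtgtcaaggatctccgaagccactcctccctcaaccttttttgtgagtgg
The same holds for Gstt1, Gstt4, Gsto1, Gsto2, Gstz1, Gstm2, Gstm3, Gstm4 and Gstm6, so it is not particular to Gstt3. Of these, Gstt1 differed by -0.32, Gsto1 by -0.02 and Gstm3 by 0.46. The antioxidant response element core TGACNNNGC was in 2 of 18 Gst promoters, those of Gsta3 and Gstm5, and in 12.4% of all promoters. GCGTG was in 5 of the 18, beside 32.5%, and GTTAAT in 1, beside 7.22%.

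The alpha class, which removes lipid peroxidation products and aflatoxin epoxide, was lower throughout, though within 1.5-fold by the brightest probe sets. Gsta2 read 455 against 632 (log2 difference -0.47), Gsta4, which conjugates 4-hydroxynonenal, 680.1 against 831 (-0.29) and Gsta3 4134 against 4781 (-0.21). A dimmer probe set of Gsta3 stood at 399 against 629 (-0.65). Against this, a probe set shared by Gsta1, Gsta2 and Gm3776 read 486 against 446, a log2 difference of 0.12, so the direction for Gsta2 rests on its own probe set. Gsta3 lies on chromosome 1, with its promoter region at 21240335 to 21240634 (GRCm38.p6). Bglu3 is also a locus of chromosome 1, but whether its segment reaches Gsta3 is not stated in the labels.

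The mu class, whose 7 genes form a cluster on chromosome 3, had no common direction, with a median of 0.04 and 3 of 7 members lower. Gstm1, the main mu form of liver, read 5693 against 5540 (log2 difference 0.04), while its 4 probe sets ranged from -0.27 to 0.05. Gstm4 read 346 against 437 (-0.33) and Gstm6 186 against 198 (-0.09). Gstm3 had the highest difference of all expressed members, 280 against 202 (0.46), but its other probe set differed by 0.00 with 70.7 against 70.5. Gstm7 read 326 against 340.4 (-0.06) in one probe set and 75.6 against 51.2 (0.52) in the other. Gstm2 (801 against 727) and Gstm5 (328 against 308) differed by 0.14 and 0.09. Of the 8 members with at least 2 expressed probe sets, 6 had all of them on the same side of 0, and the exceptions were Gstm1 and Gstm7.

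The pi class was the only class with all expressed members on the higher side, and it has 2. Gstp1, which is male-biased in mouse liver, read 6005 against 5386 (log2 difference 0.16) and Gstp3 218 against 167 (0.38). The omega class was split by level. Gsto1, a thiol transferase, read 1915 against 1949 (-0.02), and Gsto2, a dehydroascorbate reductase, 16.1 against 27.1 (-0.61). Gsto2 passed the filter on expression only through the control array, so a lower value was built into its selection. Without it, 5 of the 36 members expressed on both arrays were lower by 1.5-fold or more, beside 3.30% of all genes expressed on both arrays. Gstz1, which isomerizes maleylacetoacetate in tyrosine breakdown, read 2503 against 3026 (-0.27), and Gstk1, of mitochondria and peroxisomes, 2523 against 2960.5 (-0.23).

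Of the genes that supply or turn over the cosubstrates, Chac1 alone passed 1.5-fold by the brightest probe set. A second, dimmer probe set passed it for Slc35d1 (log2 difference 0.62) and for Bpnt1 (-0.62). The counts below use the brightest probe sets, by which 5.26% of all expressed genes were lower and 7.59% higher by 1.5-fold or more. Of 6 expressed genes of glucuronic acid supply and release 0 passed 1.5-fold, from Ugdh, which makes UDP-glucuronic acid, with 921 against 1006 (log2 difference -0.13) to the beta-glucuronidase gene Gusb (0.22). Of 8 genes of sulfate donor supply and release 0 passed it, between Bpnt1 (-0.26) and the Golgi PAPS transporter Slc35b3 (0.48). The liver PAPS synthase Papss2 read 1537 against 1803 (-0.23). Of 14 genes of glutathione supply and turnover 1 was lower, Chac1, which degrades glutathione, with 82.2 against 174 (-1.04), and Ggt6, of the gamma-glutamyltransferase family, was the highest (0.50). Gclc, the catalytic subunit of the rate-limiting step of glutathione synthesis, read 1233 against 1563 (-0.34). Of 9 glutathione-handling genes outside the name rule 2 were higher, Hpgds, a prostaglandin D synthase of blood cells, with 21.6 against 7.59 and Clic1 with 709 against 403 (0.81). Hpgds was expressed only on the congenic array, so its direction followed from the filter. The lowest of them was the leukotriene C4 synthase gene Ltc4s (24.6 against 31.4, -0.30), and Mgst1, the abundant microsomal enzyme, read 11977.5 against 11650.7, a log2 difference of 0.04, with a second probe set at -0.65.

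**Figure D4:**
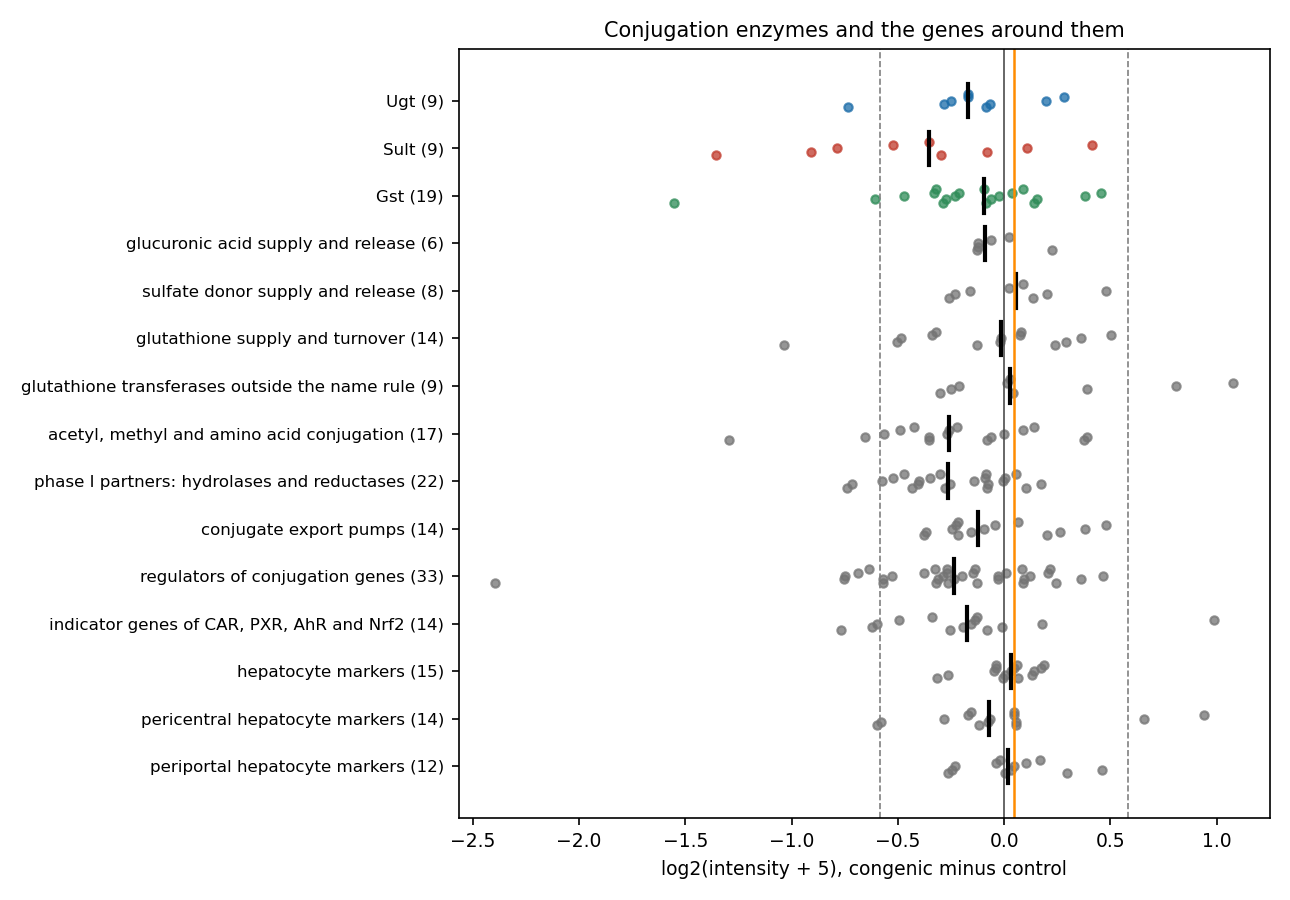
Log2 difference of each expressed gene (points) and the median (black bars) for the Ugt, Sult and Gst genes and for 12 lists of related genes or hepatocyte markers, with the number of expressed genes in brackets. Dashed lines mark 1.5-fold and the orange line the median of all expressed genes (0.04); the Sult median is -0.35, a value that depends on the filter on expression.

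Other conjugation reactions and the phase I enzymes that act before them leaned to the same side. Of 17 expressed genes of acetyl, methyl and amino acid conjugation 13 were below 0, beside 43.8% of all expressed genes. Their median was -0.26, and 2 were lower by 1.5-fold or more, beside 5.26% of all expressed genes. These were Keg1, of the glycine acyltransferase family, with 127 against 319 (log2 difference -1.29) and the creatine-forming methyltransferase Gamt with 712 against 1122 (-0.65), while Nnmt, the nicotinamide methyltransferase, read 4645 against 3540 (0.39). Of 22 phase I hydrolases and reductases 18 were lower by the brightest probe sets, beside the same 43.8%, with a median of -0.27. On the lower side 2 of the 22 passed 1.5-fold, beside the same 5.26%, namely the carboxylesterases Ces2a (691 against 1158) and Ces2e (346 against 571). Aldh1a7 was the highest (0.17). Another probe set passed 1.5-fold for Fmo5 (log2 difference -0.88), and others of Fmo2 differed by -0.63 and 1.05. Of 14 conjugate export pumps 0 passed it, with a median of -0.12, from Abcb1a (-0.38) to Abcb1b (0.48), and Abcc2, the canalicular pump for conjugates, read 591 against 701 (-0.24).

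Regulators of the conjugation genes were lower in 23 of 33 cases, beside 43.8% of all expressed genes, with a median of -0.24. By 1.5-fold or more 5 of them were lower by the brightest probe sets, beside 5.26%. These were Maff, a small Maf partner of Nrf2 (22.6 against 139.7), Dbp (222 against 378), Tef (267 against 451), Foxa3 (503 against 811) and Ppara (882 against 1373). Dbp and Tef are clock-driven factors that act on CAR and on xenobiotic enzymes, and Tef had another probe set at 0.03. For some regulators within 1.5-fold another probe set passed it, namely Stat5b (-0.99), Bcl6 (-0.97), Arnt (-0.80), Cebpb (-0.69), Hnf4a (-0.59) and Nr3c1 (0.73). The PXR gene Nr1i2 read 282 against 421 (log2 difference -0.57) and the CAR gene Nr1i3 566 against 650 (-0.20). Nfe2l2, which encodes Nrf2, was the highest of the list at 1010 against 730 (0.47). Of 14 expressed indicator genes of CAR, PXR, AhR and Nrf2 3 were lower and 1 higher by 1.5-fold or more, beside 5.26% and 7.59% of all. The lower ones respond to AhR, namely Cyp1a1 (10.2 against 20.9), Cyp1a2 (1602 against 2429) and Tiparp (123 against 192). Cyp1b1, which also responds to AhR, stayed within 1.5-fold (58.0 against 64.3, -0.14). The higher one was the CAR target Cyp2b10 (25.7 against 10.5). Cyp1a1 was expressed only on the control array and Cyp2b10 only on the congenic array, so the direction of these 2 followed from the filter. The PXR target Cyp3a11 read 11010.2 against 11094.9 and the Nrf2 target Nqo1 57.9 against 69.9. Another probe set of the indicator gene Srxn1 differed by 0.83, while its brightest differed by 0.18. Whether any of these moved the conjugation genes was not tested.

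Markers of immune cells were higher in the congenic liver beside these results. Hepatocyte markers had a summed intensity of 144143 in the congenic against 140252 in the control liver. By the brightest probe sets 0 of 15 expressed members passed 1.5-fold. Another probe set passed it for Hnf4a (log2 difference -0.59) and for Apob (0.64). Fgb, the brightest of these markers, held the highest intensity of the congenic array (14440.3). Pericentral markers, from the zone where many conjugation enzymes are most abundant, had a median of -0.07 over 14. Of these Cyp1a2 was lower and Tbx3 (0.94) and Rnf43 (0.66) were higher by 1.5-fold or more. Periportal markers had a median of 0.02 over 12, with 0 past 1.5-fold by the brightest probe sets. For some markers within 1.5-fold another probe set passed it, namely the periportal Etnppl (1.57), Hsd17b13 (1.07) and Ctsc (0.96) and the pericentral Slc1a2 (-0.97). Macrophage markers summed to 35779 against 23861, with 10 of 15 higher by 1.5-fold or more, beside 7.59% of all expressed genes. All 15 were at or above the median of both arrays. Neutrophil markers summed to 12937 against 5296, with 9 of 13 higher, beside the same 7.59%. Of the 13 genes 9 reached the median of the control array, and 4 of the 9 higher genes were expressed only on the congenic array. Of 19 acute phase genes 6 were higher and 2 lower, beside 7.59% and 5.26% of all expressed genes, with summed intensities of 143298 and 102629. Of 5 expressed cholangiocyte markers and 3 expressed kidney and intestine markers 0 passed 1.5-fold by the brightest probe sets. Another probe set of the cholangiocyte marker Sox9 differed by -0.68. The part of immune cells and of the acute phase response in the differences of the conjugation enzymes was not tested.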

How the data were processed

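Each of the 2 Affymetrix arrays read cRNA prepared from 8 µg of liver RNA, per the labels. The deposited table gives a linear intensity per probe set and array (45101 probe sets, 64 of them controls); the summarizing and scaling done by the authors were not given in the sources used here. Array medians were 19.3 and 19.7 and were left as deposited; 1 array per group limits the precision. Genes were named from the 34945 probe sets with 1 symbol; 932 had several. All 43 members matched RefSeq (GRCm38.p6), which gave chromosome, gene order and promoters (38 members; the most upstream start where there were several). Promoter coordinates are RefSeq's.

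Values were processed in Python 3.11.15 with pandas 2.3.3 and statsmodels 0.14.6, with a pseudocount of 5. Named members were those past 1.5-fold, the 3 highest and 3 lowest of each family and those with several expressed probe sets, and others by class; of the lists of enzymes, pumps, regulators, indicator and sex-biased genes, those past 1.5-fold and the highest and lowest. Papss2, Gclc, Mgst1, Abcc2, Nr1i2, Nr1i3, Cux2, Cyp1b1, Cyp3a11 and Nqo1 were named for their roles after their values were seen. Slc35d1, Fmo2, Fmo5, Cebpb, Arnt, Bcl6, Stat5b, Nr3c1 and Srxn1 were named for another probe set past 1.5-fold. Members and lists were chosen with earlier results of these data known. Alternatives were 3 scalings, pseudocounts of 20 and 0, 3 filters on expression, 3 probe set rules and 2-fold. The procedure was tested on simulated data with less noise than the within-gene SDs given above. That run therefore does not show how reliable a 1.5-fold difference is in the real data.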

Additional observations from a re-analysis of the deposited data

How the results depend on the processing

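The medians of all members and of each family stayed below 0 under the scalings, pseudocounts, filters and probe set rules tried. The Sult median was -0.52 with the 75th percentile as the filter (7 genes) and -0.082 with no filter. With no filter 3 Sult genes, and so 3 members in all, were higher by 1.5-fold or more. At 2-fold the counts of lower members were 2 in all, 1 Sult, 1 Gst and 0 Ugt. The Gst count was also 1, without Gsto2, under median centring (its difference was -0.58), a pseudocount of 20 (-0.38), expression on both arrays, the 75th percentile and plain _at probe sets. The other 5 members past 1.5-fold remained so in each alternative run for them. Of 24 named members 3 changed sign: Gstm1 (-0.09) and Gstm7 (0.23) with the mean of expressed probe sets, and Gsto1 (0.0045) under median centring. Gstm3 stood at 0.0034 with plain _at probe sets. Scaling turned the sign of 4 list medians, all within 0.04 of 0: median centring that of glutathione supply (0.01), and quantile normalization those of other glutathione-handling genes (-0.02), hepatocyte markers (-0.02) and periportal markers (-0.01). The motifs AGGTCA and TATAAA, the brightness classes and the scaling of lists were added after the data were seen. Only 1 array per group was available, so leaving out a replicate could not be tried.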
